A study of Mus musculus with 12 samples.

Results

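Cdsn, B4galnt2, Galnt15, Papss2, Cass4, Stbd1 and Mc5r are 7 genes with higher transcript levels in the spinal cord of mice carrying the P278KY allele of Gars, and none of them is a usual marker of cell stress or of a spinal cord cell type. They were chosen by name for their rise in P278KY over wild type (WT) cord in these same 12 mice, so their genotype differences are given as a description with no test. They are 7 of the 38924 genes in the tables, and 7 of 7 passed the filter on low counts that left 17980 genes. Cdsn and B4galnt2, with few reads in the WT libraries, passed it through their P278KY libraries. Gars encodes glycyl-tRNA synthetase, which joins glycine to its tRNA, and dominant mutations in it cause an inherited peripheral neuropathy, Charcot-Marie-Tooth disease.

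The cords came from 12 animals aged 8 weeks on a mixed B6J;CAST background: 3 WT females, 3 WT males, 3 P278KY/+ females and 3 P278KY/+ males. The labels give the mutation as heterozygous and name no treatment. Polyadenylated RNA of whole cord was sequenced, with 26982140 to 39339999 expected counts per library, and levels are given as CPM, counts scaled to a common library size, unless TPM, which also scales for transcript length, are named. In whole cord, a change in the number of cells that express a gene and a change in the RNA per cell cannot be told apart.

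The genes act in separate processes. Cdsn encodes corneodesmosin, a glycoprotein that holds together the dead outer cells of the skin. B4galnt2 and Galnt15 encode Golgi enzymes that add N-acetylgalactosamine, the first to finished sugar chains and the second to proteins. Papss2 makes the activated sulfate that all sulfotransferases use. Cass4 encodes a docking protein of focal adhesions, Stbd1 a membrane protein that binds glycogen, and Mc5r a melanocortin receptor known mainly from exocrine glands.

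In all, 425 genes were higher in P278KY cord at an edgeR adjusted p under 0.05, which is 2.36% of those tested, and 531 were lower (2.95%). The 7 genes are among the 425 by choice. They ranked 4th to 35th by fold among them, and the rule that named them sets no smallest fold. Just beside them in that order stood Adm2 (log2 5.77) above Cdsn and Slc7a1 (log2 0.55) below Papss2. All 6 P278KY mice were above all 6 WT mice for each of the 7, as for 311 genes (1.73%) in all.

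**Figure D1:**
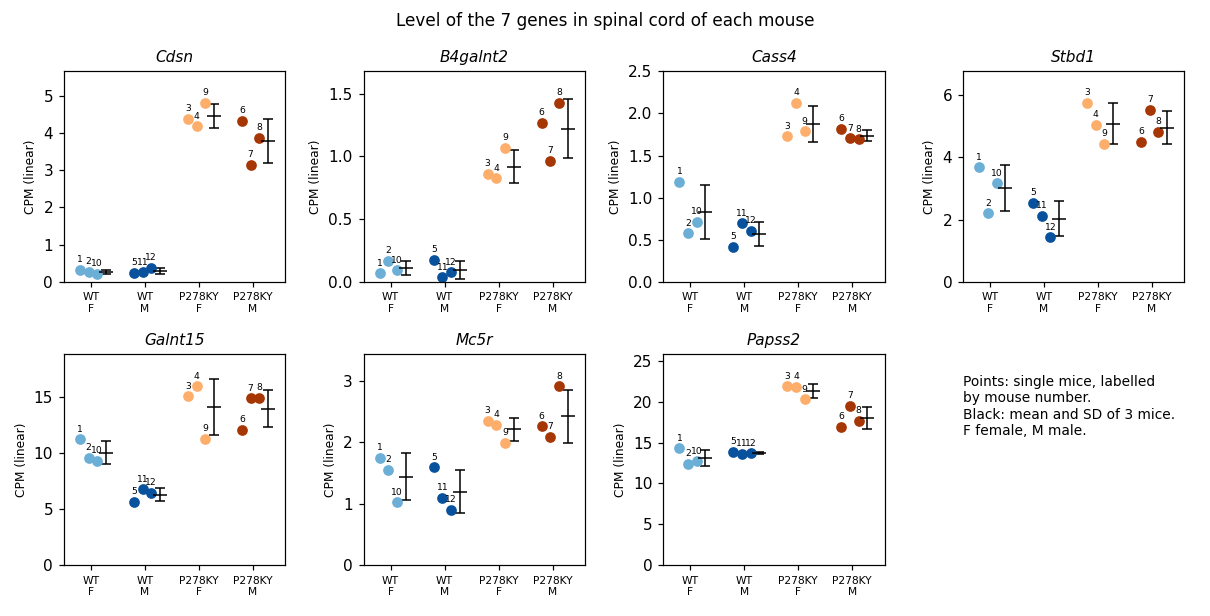
CPM of each of the 7 genes in each of 12 mice on linear axes from 0, with mouse numbers, and the mean and SD of each group of 3. The P278KY mice lie above the WT mice in every panel, with the widest gap for Cdsn and the narrowest for Galnt15, where mouse 9 (11.3) is next to WT mouse 1 (11.2).

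For the sequences at their starts, the promoter windows of RefSeq on GRCm38.p6 were searched on both strands. A window runs from 250 bases before to 50 bases after a start, and 8 windows of 6 of the genes were used. Mc5r was left out of this search. The composite element of ATF4 and C/EBP proteins, the mark of the amino acid stress response, was searched as TTGCATCA and was in 0 of the 6 genes, against 0.895% of all 32851 windows and 7 of 30 known ATF4 target genes. A looser form, TTGCNTCA, which includes the first, was added after the windows had been read. It matched in Cdsn, its first base at -85 from the start, and in Cass4 at -134, and in 3.69% of all windows. Among ATF4 target genes it was in 7 of 30, the same number as TTGCATCA, so the looser form added no ATF4 target gene. The 150 bases before each RefSeq start are shown with the match in capitals, chr17:35551978-35552127 (plus strand) for Cdsn and chr2:172393494-172393643 (plus strand) for Cass4.
Cdsn: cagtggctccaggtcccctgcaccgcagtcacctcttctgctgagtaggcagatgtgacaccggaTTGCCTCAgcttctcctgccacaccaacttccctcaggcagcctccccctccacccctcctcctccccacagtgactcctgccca
Cass4: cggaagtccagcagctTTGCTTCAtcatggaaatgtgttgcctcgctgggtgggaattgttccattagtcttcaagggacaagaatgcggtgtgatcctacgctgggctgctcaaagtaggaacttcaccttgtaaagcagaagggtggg
The matches differ from each other at the free base, and neither is the searched ATF4 element. A match is a description of the letters, not of binding.

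Of the other motifs, TGANTCA, the AP-1 element, matched in Galnt15 only, at -58, and in 7.81% of all windows. The match is at the centre of chr14:32029035-32029061 (plus strand), which lies downstream of the GENCODE start of the gene, because the RefSeq start is 114 bases further in.
Galnt15: tgctctgaccTGACTCAaggcatccca
TGATGNAA, which overlaps the ATF4 element on the other strand (3.97% of windows), TGACGTCA, the cyclic AMP response element (1.79%), CACGTG (7.15%) and the glucocorticoid receptor core TGTTCT (19.0%) were each in 0 of the 6 genes. Of 2 further motifs added after reading, TATAAA was in 0 of 6 (13.6% of windows) and GGGCGG, the GC box, was in B4galnt2, Stbd1 and Papss2 (35.7%). For Papss2 it was in the window 75 bp from the gene start. It was absent from the window 24215 bp further in, where the transcript counted here starts.

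Cdsn showed the widest separation. It lies at chr17:35552128-35557180 (plus strand, GRCm38) and has 2 exons. WT libraries ran from 0.217 to 0.377 CPM with a median of 0.264, or 7 to 10 reads each. P278KY libraries ran from 3.15 to 4.81 CPM with a median of 4.26, or 98 to 174 reads. The lowest P278KY mouse was 8.36 times the highest WT mouse. The means were 0.282 ± 0.0599 (SD, n = 6) and 4.12 ± 0.565, a fitted log2 difference of 3.85 (SE 0.16). Summed over mice there were 49 against 793 reads, a ratio of 14.7 with a 95% interval for counting error of 11.02 to 20.1. Per transcript length, its level was 0.207 TPM in WT and 3.18 TPM in P278KY cord.

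Markers of the skin were counted beside Cdsn. Of 30 markers of the epidermis, 11 passed the filter. Of these 0 rose and 0 fell, near the shares of 2.36% and 2.95% over all tested genes. The median log2 difference of the 11 was 0.02. Their summed level was 33.9 to 40.1 CPM in WT and 32.6 to 42.6 CPM in P278KY mice. The list was split. Of the 30, 16 had 0 reads in at least 1 mouse, among them the basal keratins Krt14 (0 to 6 reads) and Krt5 (0 to 9), Dsg1a (0 to 3), Klk5 (0 to 2) and Casp14 (0 to 1). The others were read in all 12 libraries, among them Sbsn (250 to 370 reads), Lor (131 to 221), Trp63 (98 to 194), Perp (85 to 156), Krt10 (64 to 128) and Krt1 (56 to 132).

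Genes of desmosomes and of the proteases that cut corneodesmosomes were described by count. Of 13 tested, 0 rose and 2 fell. These were Ctsd, the lysosomal protease cathepsin D (log2 -0.21, adjusted p 0.00149), and Jup, the junction protein plakoglobin (log2 -0.25, adjusted p 0.00525). A property of Cdsn that the rule did not use is its amino acid make-up. Glycine codons are 18.9% of its 561 codons, at percentile 99.6 of 15584 tested coding genes, whose median is 6.29%. Stbd1 (12.7% of 338 codons, percentile 98.0) was also high, and the other 5 genes had 4.57% to 7.09%, around the median.

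B4galnt2, the enzyme that completes the Sda blood group glycan, was the nearest to Cdsn in fold. It lies at chr11:95865943-95914891 (minus strand). WT mice had 0.0366 to 0.173 CPM, median 0.0841, which is 1 to 5 reads a library. P278KY mice had 0.825 to 1.43 CPM, median 1.02, or 26 to 51 reads. The groups were far apart, the lowest P278KY value being 4.76 times the highest WT value, but the WT level rests on 18 reads in all. The sum of 207 reads in P278KY gives a ratio of 10.5 with a counting interval of 6.45 to 17.996, and the fitted log2 difference was 3.31 (SE 0.31). An antisense gene, Gm11534, overlaps B4galnt2 and had 5 reads over all mice.

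None of the close relatives of B4galnt2 passed the edgeR test. B4galnt1, which makes brain gangliosides, had 52.3 ± 2.02 CPM in WT and 52.9 ± 2.63 in P278KY cord (SD, n = 6), log2 0.02. B4galnt3 had a log2 difference of -0.11 and B4galnt4 of 0.16 (adjusted p 0.0532), and neither passed. B4galnt4 passed in 5 of 23 alternatives, DESeq2 (adjusted p 0.021) and limma voom (adjusted p 0.0339) among them. The sign for B4galnt1 and B4galnt3 changed when some mice were left out. Of 23 genes of this family and of the Sda glycan, 0 rose and 2 fell: Csgalnact1, which starts chondroitin sulfate chains (log2 -0.17, adjusted p 0.0275), and St3gal1, a sialyltransferase (log2 -0.26, adjusted p 0.0281).

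Galnt15, a member of the family that starts mucin-type O-glycans, was at a higher level and rose by less. It lies at chr14:32028989-32062197 (plus strand). WT females had 11.2, 9.59 and 9.29 CPM, and WT males 5.65, 6.77 and 6.44. P278KY females had 15.04, 15.95 and 11.28 CPM, and P278KY males 12.1, 14.9 and 14.9. The genotypes did not overlap but nearly touched, the lowest P278KY mouse being 1.01 times the highest WT mouse. The means were 8.16 ± 2.18 and 14.0 ± 1.88 CPM (SD, n = 6), log2 0.82 (SE 0.13).

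The other GALNT enzymes, which share the reaction, ranged from -0.22 to 0.21 in log2 difference. Of 27 tested genes of mucin-type O-glycan synthesis, 0 rose and 1 fell, Galnt9 (log2 -0.22, adjusted p 0.0337), an enzyme of the same family known from brain. The Galnt9 call was lost when any of 10 of the 12 mice was left out.

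Papss2 had the highest level of the 7 and the smallest fold. It lies at chr19:32595790-32667187 (plus strand). WT mice had 12.4 to 14.3 CPM, median 13.7, and P278KY mice 16.9 to 21.9 CPM, median 19.9. The means were 13.4 ± 0.731 and 19.7 ± 2.08 (SD, n = 6), log2 0.55 (SE 0.067). Its spread among WT mice, a coefficient of variation of 5.44%, was the lowest of the 7, against 21.2% to 55.3% for the rest. Papss1, the second PAPS synthase, had 91.0 CPM in WT and 92.8 in P278KY cord, log2 0.03 (adjusted p 0.794), a sign that some left-out mice turned. Of 48 tested genes of sulfate uptake, activation and transfer, 0 rose and 0 fell.

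Cass4 was low in WT cord and 2.59 times as high by mean in P278KY cord. It lies at chr2:172393794-172433757 (plus strand). WT mice had 0.416 to 1.19 CPM, median 0.649, and P278KY mice 1.69 to 2.12 CPM, median 1.76. WT mouse 1 was the highest of its group by a wide margin, and the P278KY mice were close together but for mouse 4 at 2.12. Mouse 1 was also the highest of all 12 in markers of fibroblasts and meninges (mean log2 CPM 5.64, the others 4.36 to 4.85), endothelium (5.53, the others 4.75 to 5.11) and skeletal muscle (8.64). After subtracting group means, Cass4 had an r over the 12 mice of 0.88 with the fibroblast list and 0.86 with the endothelium list. For the other genes r ran from -0.70 (B4galnt2) to 0.76 (Papss2) with the fibroblast list. With the endothelium list it ran from -0.62 (B4galnt2) to 0.62 (Stbd1). Mouse 1 was kept in these values. Without mouse 1 the log2 genotype difference of Cass4 was 1.57. The means were 0.699 ± 0.263 and 1.81 ± 0.163 (SD, n = 6), log2 1.38 (SE 0.20). An antisense gene, Gm14455, overlaps Cass4. It had 134 reads over all mice, at 0.302 CPM in WT and 0.425 in P278KY (adjusted p 0.485), and the sources used here do not say whether strand was used in the counting.

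The CAS family works with Src kinases at focal adhesions. The other members are Bcar1 (log2 0.15, adjusted p 0.122), Efs (0.11) and Nedd9 (-0.10), and none passed the test. Of 23 tested genes of the family and its partners, 1 rose and 2 fell. Src itself rose by log2 0.13 (adjusted p 0.0499), and that call was lost when any of 11 of the 12 mice was left out. Tns1, the adhesion protein tensin (log2 -0.44, adjusted p 0.000353), and Bcar3, which binds CAS proteins (log2 -0.32, adjusted p 0.0126), fell.

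Cass4 was chosen by its level in counts and TPM, and its mix of transcripts is another measure, but not a fully separate one. TPM divide by transcript length, so a shorter mean length raises the TPM. The ratio of P278KY to WT means for Cass4 was 2.59 in CPM and 3 in TPM. The length values below are therefore not free of the choice. The tables give for each gene the mean transcript length weighted by the estimated share of each isoform, which moves only when isoform shares move. For Cass4 it was 3443 to 3642 bp in the 6 WT mice, mean 3559 ± 89.4 (SD, n = 6). In the 6 P278KY mice it was 3094 to 3398 bp, mean 3206 ± 113. The genotypes did not overlap, and the share of all genes with such lengths was not counted. The 3 P278KY females, at 3094, 3144 and 3132 bp, were the lowest. The log2 difference was -0.15 (SE 0.024), with an exact two-sided permutation p of 0.00216, the smallest that 924 divisions of 12 mice allow. It did not pass the test over all genes: limma ranked it 3rd of 10443 genes with an adjusted p of 0.374 (unadjusted 0.000107). There, 2 genes passed, 0.0192% of those tested, and 660 had an unadjusted p under 0.05.

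Of the 3 isoforms of Cass4 in GENCODE M21, of 3731, 3600 and 2702 bp, the shortest alone holds an exon of 78 bp inside the coding sequence, at chr2:172429642-172429719 (plus strand, GRCm38). It is shown because it is what sets the shorter isoform's protein apart from the 3600-bp form before their shared last exon. The exon itself adds length: the isoform is shorter mainly because its last exon has 628 bp, against 1525 bp in the 3600-bp form. The weighted length alone therefore does not show whether this exon was read. The shortest transcript has the most codons, 804 against 778 and 685.
Cass4 exon 6: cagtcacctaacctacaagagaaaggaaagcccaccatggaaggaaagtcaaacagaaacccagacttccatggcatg
If only these isoforms were counted, the lengths imply a share of the short isoform of 0% to 27.99% in WT mice and 22.5% to 61.9% in P278KY mice, the bounds depending on which longer form is present. Isoform shares are RSEM estimates, and the WT ones rest on as few as 12.2 reads. For Galnt15, with isoforms of 6326 and 3563 bp, the length was 5597 ± 308 bp in WT and 5600 ± 150 bp in P278KY cord (SD, n = 6; exact permutation p 0.957). The other 5 genes have 1 isoform in the tables and could not be tested.

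**Figure D2:**
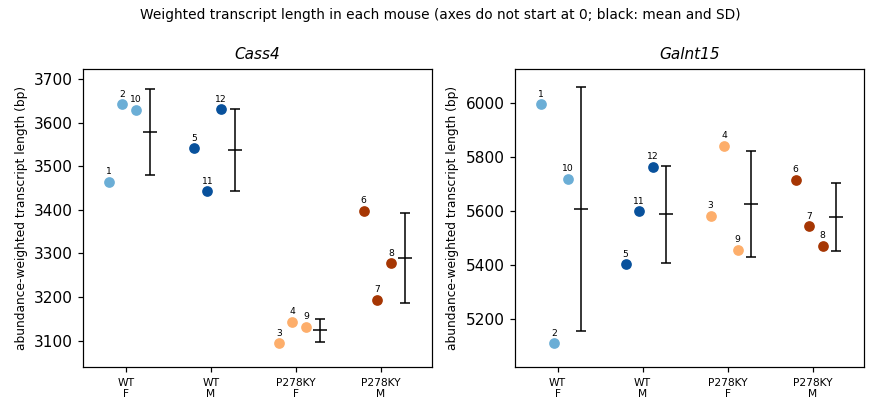
Abundance-weighted transcript length in bp of Cass4 and Galnt15 in each mouse, with the mean and SD of each group of 3, on axes that do not start at 0. For Cass4 the WT mice lie at 3443 bp or more and the P278KY mice at 3398 bp or less, while for Galnt15 the genotypes overlap throughout.

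Stbd1, which binds glycogen and recruits it to membranes and autophagosomes, was 1.99 times as high by mean. It lies at chr5:92603041-92606579 (plus strand). WT mice had 1.43 to 3.67 CPM, median 2.37, and P278KY mice 4.44 to 5.74 CPM, median 4.93. WT spread was wide, a coefficient of variation of 31.6% against 10.7% in P278KY mice, and the lowest P278KY mouse was 1.21 times the highest WT mouse. The means were 2.52 ± 0.797 and 5.01 ± 0.536 (SD, n = 6), log2 1.01 (SE 0.17).

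Of 27 tested genes that make or break down glycogen, 0 rose and 2 fell, among them Gbe1, the glycogen branching enzyme (log2 -0.35, adjusted p 0.00567). As 2.36% of all tested genes rose, 0 of 27 is near that share. Of 21 tested receptors and ubiquitin-like proteins of selective autophagy, 0 rose and 2 fell. These were Bnip3, a mitophagy receptor (log2 -0.12, adjusted p 0.0234), and Tax1bp1, a cargo receptor (log2 -0.09, adjusted p 0.0483), whose call was lost when any of 11 of the 12 mice was left out. The list does not hold Calcoco2, a receptor that fell and is described with the neighbours of B4galnt2.

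Mc5r, the receptor of the set, lies at chr18:68337596-68342446 (plus strand). WT mice had 0.904 to 1.75 CPM, median 1.33, and P278KY mice 1.99 to 2.92 CPM, median 2.27. The means were 1.32 ± 0.355 and 2.32 ± 0.323 (SD, n = 6), log2 0.81 (SE 0.18). Its WT level was split by mouse: mice 10, 11 and 12 had 0.904 to 1.10 CPM, and mice 1, 2 and 5 had 1.56 to 1.75. Among P278KY mice, mouse 9 had the lowest level, 1.99 CPM. Set against WT mice 10 to 12 alone it was 1.98 times as high, and the other 5 P278KY mice were 1.46 times WT mice 1, 2 and 5. Mc4r, the melanocortin receptor that controls appetite, had 2.31 CPM in WT and 2.22 in P278KY cord (log2 -0.05, a sign that 4 alternatives turned), and Mc1r, Mc2r and Mc3r were too low to test. Of 13 tested genes of melanocortin signalling, 0 rose and 1 fell, Prcp, a peptidase that inactivates alpha-MSH (log2 -0.31, adjusted p 0.00763).

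Compared per transcript length, the order of the 7 genes differed little between genotypes. In WT cord Papss2 was highest at 7.14 TPM, then Galnt15 (2.79), Stbd1 (2.54) and Mc5r (2.41), whose means lie within their spread. Cass4 (0.385), Cdsn (0.207) and B4galnt2 (0.12) were lowest. In P278KY cord Papss2 (11.04 TPM) was followed by Stbd1 (5.32), Galnt15 (5.02) and Mc5r (4.45), with Cdsn at 3.18, B4galnt2 at 1.33 and Cass4 at 1.16. Cdsn was above Cass4 there, while B4galnt2 and Cass4 overlapped, B4galnt2 being the lower of them in mice 3 and 4. The tables' length for Mc5r, 1162 bp, is shorter than the 3904 bp of GENCODE M21, so its TPM depends on the gene model.

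Over all 8 family and pathway lists, 195 genes other than the 7 were tested. Of these 1 rose (0.513%) and 12 fell (6.15%), with a median log2 difference of -0.03, beside 2.36% and 2.95% of all tested genes and a median of -0.003. Each list alone is short, so 0 risers in 1 list is near the share over all genes. The count of risers depends on the scale: on log2(TPM + 1) values with limma, 14 rose and 5 fell, where 84.6% of all calls were higher against 44.5% with edgeR. Leaving out mouse 4, 6 or 12 lowered the number that fell to 6, 6 and 7.

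**Figure D3:**
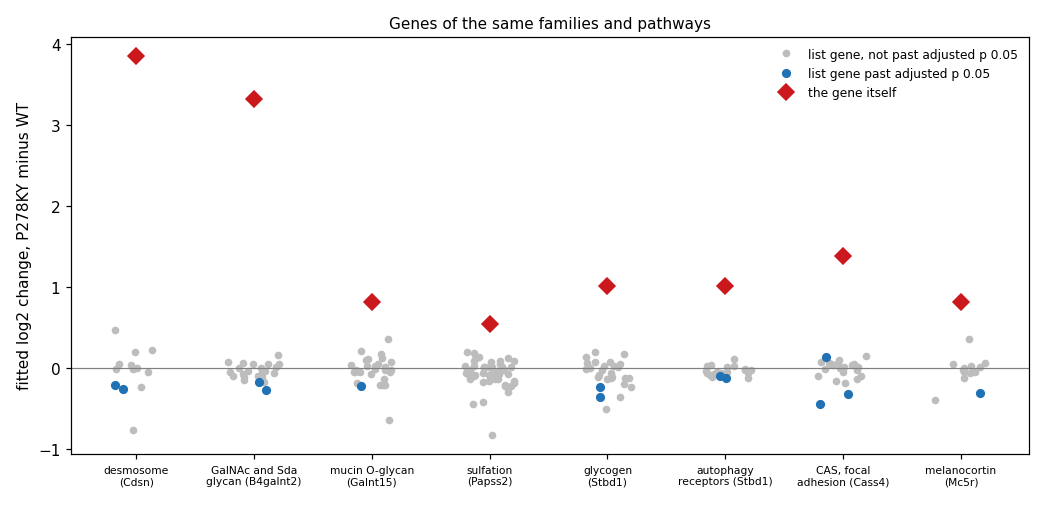
Fitted log2 difference of P278KY from WT for the tested genes of each of 8 lists (grey, not past adjusted p 0.05; blue, past it) and for the gene each list was drawn up around (red). Each red diamond lies above every other gene of its list. These genes were chosen for their rise, so this is no test. Of the 13 blue points 1, Src, is above 0.

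Genes next to the 7 on the chromosome were also counted. Of 42 tested genes starting within 200 kb of one of them, 0 rose and 3 fell, with a median log2 difference of -0.03. Over all tested genes 2.36% rose and 2.95% fell, so 0 risers of 42 is near that share. Calcoco2, an autophagy receptor 197 kb from B4galnt2, fell from 0.529 to 0.115 CPM (log2 -2.16, adjusted p 0.00188). These are low levels, and the call was lost in females alone (log2 -2.37), in males alone (log2 -1.95) and without mice 9 to 12 (log2 -2.58). Snf8, of the endosomal sorting machinery and also near B4galnt2, fell by log2 0.21 (adjusted p 0.00594), and Shroom3, an actin regulator 80 kb from Stbd1, by 0.34 (adjusted p 0.00485). Of the genes around Cdsn, the nearest tested one on each side, Cchcr1 and Vars2, both had log2 -0.02. Tcf19 (-0.18) and H2-Q10 (-0.43), on the same side as Cchcr1 and nearer than Vars2, did not pass. The highest of the 42, Fam47e and Gm14455, both at 0.49, did not pass. The 7 genes lie on 7 chromosomes, and none is on that of Gars.

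**Figure D4:**
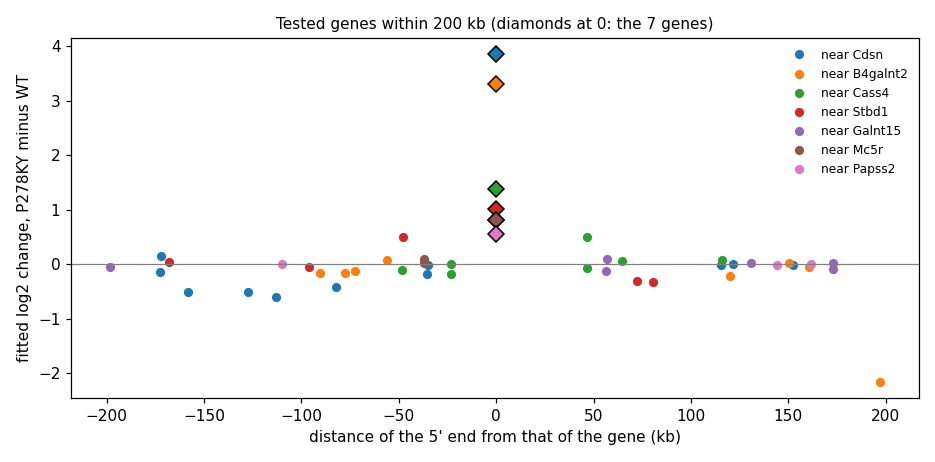
Fitted log2 difference of P278KY from WT for the 42 tested genes within 200 kb, against the distance in kb of the 5′ end of each from that of the gene (diamonds at 0, the 7 genes). The neighbours lie between -2.16 and 0.49, and the lowest point, at 197 kb, is Calcoco2. All 7 diamonds are higher, but these genes were chosen for their rise, so this is no test.

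Sex was not used to choose the genes and was tested. With edgeR, 16 of 17980 genes differed between males and females (0.089%), and 0 of the 7 did. The fitted male minus female differences ran from log2 -0.34 for Galnt15 to 0.24 for B4galnt2. Galnt15 alone had an unadjusted p under 0.05 (p 0.0265, adjusted p 0.492). DESeq2 called 208 genes and limma voom 14, again 0 of the 7.

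The interaction asks whether the genotype difference depends on sex. It passed for 0 of 17980 genes with edgeR (0%), where 665 had an unadjusted p under 0.05, for 58 with DESeq2 and for 3 with limma voom, and for 0 of the 7 with any of them. Galnt15 had a difference of log2 0.49 (SE 0.14) in females and 1.15 (SE 0.14) in males, an interaction of 0.66 (SE 0.20, unadjusted p 0.00573, adjusted p 0.803). The mean of Galnt15 was 10.03 CPM in WT females and 6.29 in WT males, while P278KY females and males had means of 14.1 and 14.0. Papss2 leaned the other way, 0.70 (SE 0.075) in females and 0.39 (SE 0.075) in males (interaction -0.31, SE 0.11, unadjusted p 0.0129, adjusted p 0.99988). Its P278KY females had 20.3 to 21.9 CPM and its P278KY males 16.9 to 19.5. Cdsn had 4.01 (SE 0.23) and 3.68 (SE 0.23), and B4galnt2 3.03 (SE 0.44) and 3.61 (SE 0.45), in females and males, with neither interaction passing.

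**Figure D5:**
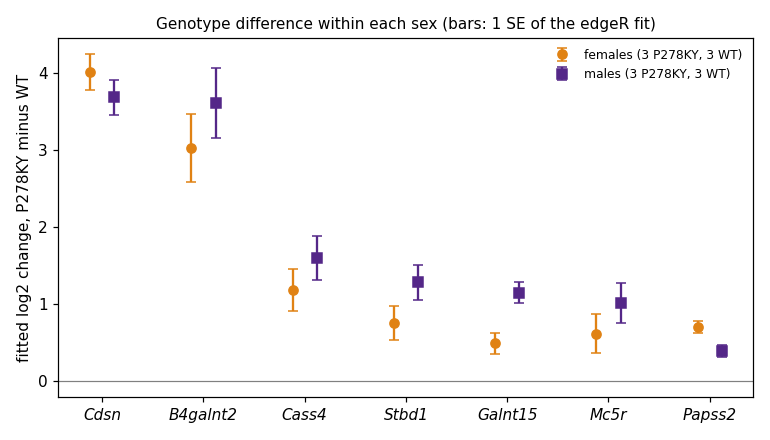
Fitted log2 difference of P278KY from WT in females (circles) and males (squares), 3 against 3 mice each, with bars of 1 SE. All 14 differences are above 0, and the largest gap relative to its error is that of Galnt15, 0.49 in females and 1.15 in males.

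Some libraries stood apart in markers of other tissues or in stress genes, in a way that does not follow genotype alone. The mean log2 CPM of skeletal muscle markers was 5.83 to 8.64 in mice 1 to 4 and 1.81 to 3.77 in the other 8. Sensory ganglion markers were at 2.80 to 3.53 in mice 7, 10 and 11 and at 0.73 to 1.26 in the other 9. Glucocorticoid response genes were at 4.51 to 4.64 in mice 9 to 12, which hold 3 WT and 1 P278KY mouse, and at 4.67 to 5.23 in the other 8. The log2 differences of the 7 genes stayed above 0 without each of these sets. Without mice 9 to 12 they were 3.86 for Cdsn, 2.80 for B4galnt2, 0.87 for Galnt15, 0.57 for Papss2, 1.46 for Cass4, 0.91 for Stbd1 and 0.53 for Mc5r. Motor neuron markers were lower in P278KY cord, where 11 of 15 fell, and 4 of 14 Schwann cell markers fell, with a median log2 of -0.72 over that list and Pmp2 at -4.04. Of 12 astrocyte markers 2 rose, Slc1a3 (log2 0.37) and Agt (0.44). Of 14 sensory ganglion markers 1 rose and 2 fell, and of 14 fibroblast and meningeal markers 1 fell. Of the tested markers of skeletal muscle (16), oligodendrocytes (12), microglia (12) and endothelium (12), 0 rose and 0 fell. Among stress genes, 18 of 36 ATF4 targets and 3 of 20 glucocorticoid response genes rose. Their part in the results was not tested.

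The genes most like each of the 7 over the 12 mice were found by likeness of level. By Pearson's r of log2 CPM, which mostly carries the genotype difference they share, Cdsn was most like Adm2 (0.986), Fgf21 (0.985) and Cpne7 (0.981). Adm2 is a peptide hormone gene and Fgf21 a secreted metabolic factor, both ATF4 targets. B4galnt2 was most like Cacng3 (0.969), Ahi1 and Sesn2 (0.961), Stbd1 like Stc2 (0.971), Cass4 like Akr1b7 (0.954), Papss2 like Herc1 (0.945), Galnt15 like D630045J12Rik (0.924) and Mc5r like Tcea1 (0.918). Within groups no order of mice was common to all 7 genes. After subtracting group means, r over the 12 mice ran from -0.81 (B4galnt2 with Cass4) to 0.69 (Galnt15 with Papss2) in 21 pairs. It was below 0 in 9. Of these 9, all but Cass4 with Mc5r (-0.07) involved Cdsn or B4galnt2, whose WT levels rest on 10 reads a mouse or fewer. Among the other genes the remaining pairs ran from 0.19 to 0.69. With the mean level of the ATF4 targets, r was 0.33 for Cdsn, -0.10 for B4galnt2 and 0.45 to 0.71 for the rest. None of these was tested.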

How the data were processed

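RNA of whole spinal cord of 12 mice was sequenced (KAPA stranded kit, paired reads of 75 bp). Per the submitters' processing notes, Bowtie2 2.2.0 and RSEM 1.2.12 were used, with build and annotation not given in the sources used here. Expected counts as deposited estimate the reads of each gene, sharing reads that match several, and were rounded before testing. TPM as deposited by the authors correct for transcript length and library. The deposited transcript length is the authors' abundance-weighted mean in bp. The members and all lists were chosen with earlier results of these data known.

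Genes were kept by filterByExpr over 4 groups and scaled by edgeR's TMM factors. CPM are counts per 1e+06 scaled counts. edgeR's quasi-likelihood F test (robust, additive sex and genotype; 4 group means for the interaction) was used with Benjamini-Hochberg adjustment and a threshold of 0.05. SE is the log2 change over the square root of F. The log2 CPM behind correlations and marker means used a prior count of 2. Weighted length was tested with limma in genes with at least 10 counts in every mouse, and with an exact permutation over mice. Counting intervals are exact at 95% and cover counting error only. Named genes were the 7, their paralogs, up to 4 called genes a list, called or nearest neighbours, and the 3 most alike genes, shortened here for GALNT genes, neighbours and alike genes. A called gene that was counted is not reported here by name. The skin genes, Tcf19, H2-Q10, Pmp2, Slc1a3 and Agt were named after their values were seen. Positions came from GENCODE M21 (37607 of 38924 genes matched by identifier). Versions were edgeR 4.0.16, DESeq2 1.42.0 and limma 3.58.1 under R 4.3.3, and the fit was tested on simulated data. Alternatives were DESeq2 size factors and test, limma voom, other filters and length minimums (3 and 30 counts), log2(TPM + 1), a 500 kb window, each sex, and leaving out mice.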

Additional observations from a re-analysis of the deposited data

Results flagged for a closer look

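Cass4 in P278KY female mouse 4, at 2.12 CPM, lay apart from the other 5 P278KY mice, which had 1.69 to 1.82 CPM. Its gap was 0.71 of the range of the 6 mice, above Dixon's critical value for 6. Of 18 groups tested this was the 1 such case, and chance gives about 1 in 20. Without mouse 4 Cass4 stayed above WT.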

How the results depend on the processing

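The log2 genotype difference of each of the 7 genes stayed above 0 in every alternative that held it. With 1 mouse left out it was 3.76 to 3.97 for Cdsn, 3.12 to 3.55 for B4galnt2, 0.74 to 0.91 for Galnt15, 0.51 to 0.58 for Papss2, 1.28 to 1.57 for Cass4, 0.89 to 1.12 for Stbd1 and 0.71 to 0.91 for Mc5r. On log2(TPM + 1), which compresses low genes, it was 1.79, 1.05, 0.69, 0.56, 0.64, 0.86 and 0.69 in the same order. No member passed the sex test in 21 alternatives, the interaction in 20 or the length test in 14, and no neighbour rose in 24. Cass4 left the length test at a minimum of 30 counts, and its adjusted p was 0.134 to 0.606 with 1 mouse left out. No paired analysis was possible because the mouse numbers are not shared between groups, so no replicate block could be formed.

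The number of genes called moved more, and the cause was not tested. Against 956 calls with 425 higher, DESeq2 gave 1627 (716), limma voom 1467 (641), log2(TPM + 1) 1606 (1358), the fit without mice 1 to 4 557 (201), without mice 7, 10 and 11 253 (87), without mice 9 to 12 84 (27), females alone 68 (24) and males alone 350 (126). Leaving out 1 mouse gave 542 to 1385 (230 to 572). Family and pathway genes that rose (1) numbered 0 with DESeq2 size factors, with no filter, without each of the 3 sets of mice and in females, 4 with DESeq2, 3 with voom, 2 with the stricter filter, 14 on log2(TPM + 1), and 0 to 3 with 1 mouse left out. Those that fell (12) numbered 5 on log2(TPM + 1), 3 without mice 7, 10 and 11, 1 without mice 9 to 12, 0 in females, 5 in males and 6 to 16 with 1 mouse left out. Neighbours that fell (3) numbered 5 within 500 kb, 1 without mice 7, 10 and 11, 0 without mice 9 to 12, 0 in females, 1 in males and 3 to 4 with 1 mouse left out. Among the calls lost often, of 23 alternatives, were Src (19), Tax1bp1 (18), Galnt9 (14), Csgalnact1 (13), St3gal1 (11) and Bnip3 (9).

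Signs turned only for differences that did not pass. The sex difference of Mc5r was 0.035 with voom, 0.26 without mice 1 to 4, 0.023 without mice 9 to 12 and -0.15 to 0.04 with 1 mouse left out. Without mice 9 to 12 the interaction was 0.13 for Cdsn and -0.014 for B4galnt2. The genotype difference of Mc4r was 0.016 on log2(TPM + 1), 0.00667 without mice 9 to 12, 0.00734 in males and -0.090 to 0.012 with 1 mouse left out. That of Papss1 was -0.038 without mice 1 to 4, -0.092 in males and -0.00068 to 0.057 with 1 left out. In females Efs was at -0.0014 and B4galnt3 at 0.19, and in males Nedd9 at 0.018. With 1 mouse left out B4galnt1 was -0.0086 to 0.034, B4galnt3 -0.19 to 0.020 and the Galnt15 length difference -0.027 to 0.024. Depth limits the WT levels of Cdsn and B4galnt2, which rest on 10 reads a mouse or fewer.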
